A study of Mus musculus with 12 samples.

Results

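Respiratory complex I, the NADH:ubiquinone oxidoreductase of the inner mitochondrial membrane, was examined in gut epithelial cells through every gene row whose symbol begins with Nduf. Of the 14244 gene rows, 47 carried such a symbol. Of these, 39 were named as subunits and 8 were the assembly factors Ndufaf1 to Ndufaf8, which were kept apart. The 39 comprised 36 nuclear-encoded complex I subunits (7 core and 29 accessory), Ndufa4, its paralogue Ndufa4l2, and a second row under the symbol Ndufa13 whose transcript the table does not name. The 7 subunits encoded by mitochondrial DNA were listed as ND1 to ND6 and ND4L, outside the Nduf names, and are described beside the members. Ndufb1 was not analysed here.

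The libraries came from 5 WT and 7 Chd8L+/- mice, male littermates of the C57BL/6 strain aged 8 weeks, with 1 library per mouse. Chd8L+/- mice carry a germline deletion within 1 copy of Chd8, which encodes a chromatin remodeller, so that the large isoform is lost from that copy in every tissue and not in the epithelium alone. Epithelial cells were shaken from washed intestine, and poly(A) RNA was sequenced. The values are normalized counts, that is, reads per gene divided by a scaling factor of the library, and the comparison asks how complex I transcripts differed between the genotypes.

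Complex I passes electrons from NADH to ubiquinone and pumps protons out of the mitochondrial matrix. Its N module binds NADH, its Q module reduces ubiquinone, and its membrane arm, built around the mitochondrially encoded ND proteins, pumps protons; accessory subunits surround this core, and assembly factors help to build the enzyme without remaining in it. In the small intestine, oxidative metabolism is prominent in the absorptive enterocytes of the villus.

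Between 15691662 and 20761315 reads per library had been counted on genes. Reads on the 13 protein-coding genes of mitochondrial DNA made up 7.60% to 26.9% of a WT library and 9.35% to 35.6% of a Chd8L+/- library. WT replicate 2 stood apart, since on the first principal component, which held 39.7% of the variance, it was at 41.0, within the Chd8L+/- range of 0.26 to 42.7, whereas the other 4 WT libraries were between -67.5 and -26.2. Its summed level of 15 enterocyte markers was 454749 normalized counts, against 918951 to 1036367 in the other WT libraries and 396976 to 855119 in Chd8L+/- libraries. Values are also given without it, as a description: it was singled out for lying with the Chd8L+/- libraries, so that leaving it out widens the difference between the groups by construction. Over all genes limma called 3 with all 12 libraries, 3533 without WT replicate 2 and 0 to 8 with any other library left out. Summed over all exons, Chd8 had 1002, 1050.2, 934, 955 and 823 normalized counts in WT replicates 1 to 5 and 1084 at the lowest, 1281 at the median and 1483 at the highest in the Chd8L+/- libraries, so that each Chd8L+/- library lay above every WT library. The table does not separate the deleted exons, and this sum is no check of the genotype labels.

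**Figure D1:**
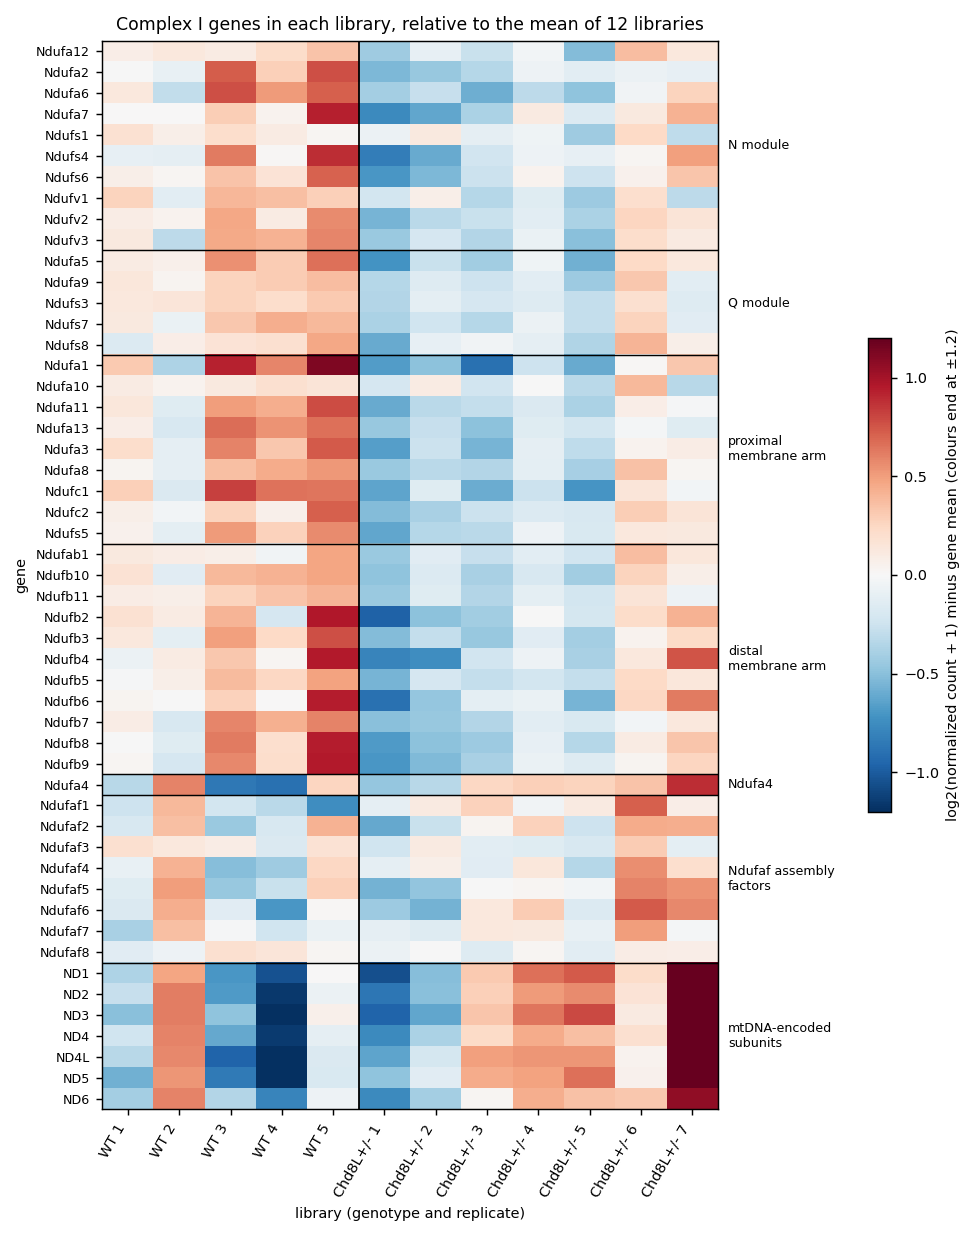
Each row is a gene and each column a library. Colour gives log2(normalized count + 1) minus the mean of that gene over the 12 libraries, with colours ending at ±1.2. The nuclear subunits were mostly above their mean in WT replicates 3, 4 and 5 and below it in Chd8L+/- replicates 1 to 5, whereas the mitochondrially encoded genes were highest in Chd8L+/- replicate 7.

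Nuclear-encoded subunits were at a lower mean level in Chd8L+/- than in WT libraries in 36 of 36 cases (34 with libraries scaled to their reads on nuclear genes), where 48.6% of all genes tested were lower and 51.4% higher, but no single gene passed the test over all genes. The Chd8L+/- mean was between 53.0% and 87.9% of the WT mean, with a median of 74.0% over the 36 genes. Of the 37 rows with a mean of at least 10, which add Ndufa4 to these 36, the median log2 fold change was -0.44, against 0.01 over all 12808 genes tested. With each library corrected for transcript length and GC it was -0.27, and of the 36 subunits 22 moved toward 0 by more than 1.5 times. The 2 that turned under the nuclear scaling were Ndufs1 and Ndufa10, both at 0.03. That scaling moved the median of all genes to 0.25, and relative to this the 37 rows had a median of -0.45.

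With p of 0.05 or less before adjustment, 26 of the 37 were lower in Chd8L+/- libraries and 0 were higher, where 11.8% of all genes tested were lower and 12.5% were higher (limma). The 26 became 16 with length and GC correction (background 11.8%), 13 under quantile normalization (background 10.4%) and 4 with scaling to nuclear reads (background 4.5%). At an adjusted p of 0.05 or less, 0 of the 37 were called by limma, where 0.0234% of all genes were called lower and 0.0% higher. When edgeR was run on reads recovered from the values, it called 0 at that adjusted p (background 0.039% lower, 0.0% higher) and found 25 lower before adjustment (background 12.3%), and DESeq2 called 10 lower and 0 higher (background 4.61% lower, 1.84% higher). With the first letter of the library's name as a block, limma called 3 lower and 0 higher (background 2.15% lower, 1.37% higher). Chd8L+/- replicate 7 was the only library with its letter, so that this block drops it from the contrast. Without WT replicate 2, limma called 23 of the 37 lower and 0 higher, where 13.6% of all genes were called lower and 14.0% higher, and before adjustment 27 were lower with p of 0.05 or less (background 19.9%), and the median log2 fold change was -0.51.

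The groups overlapped for each of the 37 members when all 12 libraries were used, where 0.273% of all genes did not overlap with Chd8L+/- lower and 0.242% with Chd8L+/- higher. Without WT replicate 2, 6 subunits were lower in every Chd8L+/- library than in every WT library (Ndufv1, Ndufa2, Ndufa3, Ndufa11, Ndufa13 and Ndufc1), where the background was 7.71% lower and 6.69% higher. In bulk tissue, fewer cells of a type and less RNA per cell cannot be told apart.

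**Figure D2:**
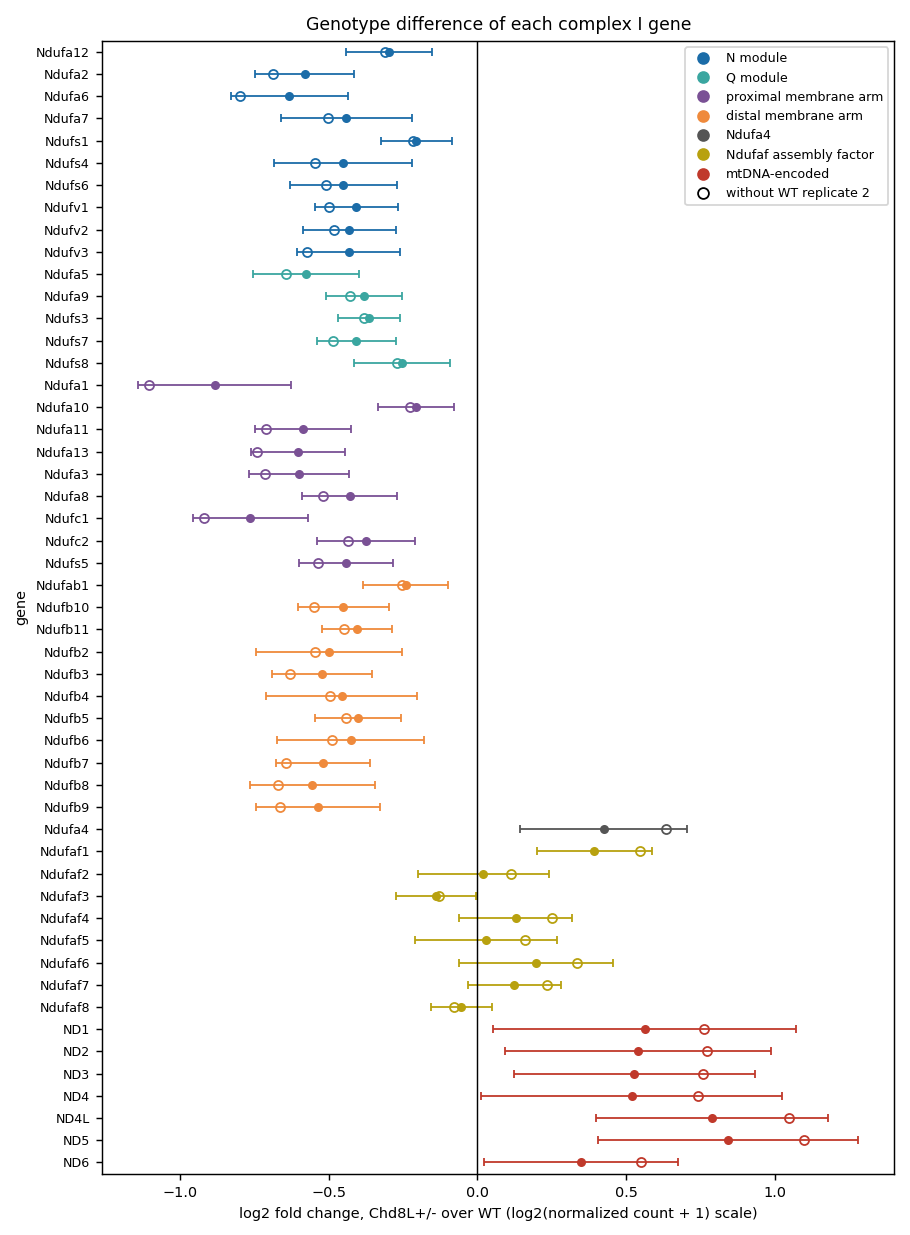
Filled points give the log2 fold change of the genes plotted, Chd8L+/- over WT, on the scale of log2(normalized count + 1), with bars of 1 SE from limma over 12 libraries, and open circles give the value without WT replicate 2. The nuclear subunits plotted lie left of 0, with Ndufa1 at -0.88 and Ndufs1 at -0.21 at the ends, and the 7 mitochondrially encoded subunits lie right of it. With libraries scaled to nuclear reads, Ndufs1 and Ndufa10 would lie at 0.03.

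In the N module, 10 of 10 subunits had a lower mean in Chd8L+/- libraries (9 with nuclear scaling), 6 of them with p of 0.05 or less before adjustment, and the median log2 fold change was -0.44. With WT replicate 2 left out, 5 of the 10 were called lower at an adjusted p of 0.05 or less (background 13.6%). Ndufv1 carries the flavin that accepts electrons from NADH, and its normalized counts were 4087, 3116, 4482, 4378 and 4158 in WT replicates 1 to 5. In the Chd8L+/- libraries it was at 2516 at the lowest, 2923 at the median and 3921 at the highest. WT replicate 2 was within the Chd8L+/- range, and the other 4 WT libraries were above all 7. The log2 fold change was -0.41 with an SE of 0.14 (limma, adjusted p = 0.127, exact permutation p = 0.0164), and -0.50 (limma, adjusted p = 0.0148, range over the alternatives 0.00664 to 0.372) without that library. Its partner Ndufv2, an iron-sulfur protein, gave a log2 fold change of -0.43 with an SE of 0.16 (limma, adjusted p = 0.138, exact permutation p = 0.0265), and -0.48 (limma, adjusted p = 0.0444, range over the alternatives 0.0161 to 0.476) without WT replicate 2. Here and for the genes below, the range over the alternatives covers every fit, with all libraries or with some left out. It is not the spread of the value without WT replicate 2.

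Ndufs1, the large iron-sulfur subunit that leads electrons out of the N module, showed 1 of the smallest differences. Its WT values were 2849.7, 2634, 2906, 2672 and 2550.4, and its Chd8L+/- values were 1867 at the lowest, 2379 at the median and 2951 at the highest. Chd8L+/- replicate 6 exceeded every WT library, replicate 2 was within the WT range, and the other 5 Chd8L+/- libraries were below it. Its log2 fold change was -0.21 with an SE of 0.12 (limma, adjusted p = 0.299, exact permutation p = 0.0859), and without WT replicate 2 it was -0.22 (limma, adjusted p = 0.222, range over the alternatives 0.106 to 0.893). Ndufa2, a small accessory subunit of this module, differed more. Its counts were 1238, 1167, 2055, 1510.5 and 2123 in WT and 852 at the lowest, 1138 at the median and 1186 at the highest in Chd8L+/- libraries, where 5 of 7 were below the lowest WT library, again replicate 2. The log2 fold change of Ndufa2 was -0.58 with an SE of 0.17 (limma, adjusted p = 0.121, exact permutation p = 0.00379), and without WT replicate 2 it was -0.69 (limma, adjusted p = 0.00917, range over the alternatives 0.00917 to 0.343). With length and GC correction it was -0.35.

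In the Q module, 6 of 6 subunits had a lower mean in Chd8L+/- libraries, 5 of them with p of 0.05 or less before adjustment, with a median log2 fold change of -0.37. Ndufs3, a core subunit of this module on the minus strand at chr2:90894634-90904827 (GRCm38), varied little within WT, with 1448, 1468, 1593, 1532 and 1655 normalized counts. The Chd8L+/- libraries had 1039 at the lowest, 1194 at the median and 1520.4 at the highest, and 6 of the 7 were below every WT library. The exception was replicate 6, which lay inside the WT range. Mean levels were 1539 ± 86.2 in WT (SD, n = 5) and 1202 ± 155 in Chd8L+/- libraries (SD, n = 7), and the log2 fold change was -0.36 with an SE of 0.10 (limma, adjusted p = 0.121, exact permutation p = 0.00758). Leaving out WT replicate 2 gave -0.38 (limma, adjusted p = 0.0221, range over the alternatives 0.00725 to 0.554), and length and GC correction gave -0.20.

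Ndufs7 lies at the site where ubiquinone is reduced and holds the last iron-sulfur cluster before it. Ndufs7 had 1919.9, 1666, 2208, 2384 and 2312 normalized counts in WT and 1352 at the lowest, 1491 at the median and 2129 at the highest in Chd8L+/- libraries. All 7 Chd8L+/- libraries were below the WT median, and replicate 6 was the highest of them. Its log2 fold change was -0.41 with an SE of 0.13 (limma, adjusted p = 0.125, exact permutation p = 0.0139), and -0.49 (limma, adjusted p = 0.0158, range over the alternatives 0.00481 to 0.424) without WT replicate 2. Ndufs8, another carrier of iron-sulfur clusters, had a log2 fold change of -0.25 with an SE of 0.16 (limma, adjusted p = 0.337, exact permutation p = 0.17), with 2 of 7 Chd8L+/- libraries below the lowest WT library. Of the 6 Q module genes, 4 were called lower at an adjusted p of 0.05 or less without WT replicate 2 (background 13.6%). Among the 4 were Ndufs3 and Ndufs7, whereas Ndufs8 was at -0.27 without that library (limma, adjusted p = 0.266, range over the alternatives 0.107 to 0.966). With length and GC correction Ndufs7 was at -0.19 and Ndufs8 at -0.06.

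Accessory subunits of the proximal membrane arm had the lowest median of the 4 modules at -0.59, with 9 of 9 lower (8 with nuclear scaling) and 8 of 9 with p of 0.05 or less before adjustment. The difference between modules was not tested. Ndufc1, on the minus strand at chr3:51404677-51408988, had the smallest p of the 47 members. Its WT counts were 1192, 866, 1723, 1538 and 1527, and its Chd8L+/- counts were 599 at the lowest, 816 at the median and 1084 at the highest. WT replicate 2 was within the Chd8L+/- range, and the other WT libraries were above all Chd8L+/- libraries. Mean levels were 1369 ± 341 in WT (SD, n = 5) and 802 ± 185 in Chd8L+/- libraries (SD, n = 7). The log2 fold change was -0.76 with an SE of 0.19 (limma, adjusted p = 0.121, exact permutation p = 0.0114), and without WT replicate 2 it was -0.92 (limma, adjusted p = 0.00437, range over the alternatives 0.00291 to 0.343).

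Ndufa1, a short membrane subunit encoded on the X chromosome (minus strand, chrX:37187588-37191163), had the lowest log2 fold change of the 36. It stood at 1391, 862, 2125, 1675 and 2433 normalized counts in WT libraries, and at 598 at the lowest, 796 at the median and 1397 at the highest in Chd8L+/- libraries. Levels within WT were widely spread, and Chd8L+/- replicate 7, the highest of its group, was just above WT replicate 1. The means were 1697 ± 615 in WT (SD, n = 5) and 899.9 ± 279.9 in Chd8L+/- libraries (SD, n = 7), with a log2 fold change of -0.88 with an SE of 0.26 (limma, adjusted p = 0.121, exact permutation p = 0.0177), and -1.10 (limma, adjusted p = 0.00549, range over the alternatives 0.00548 to 0.343) without WT replicate 2.

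Ndufa13, which also has a described role in cell death, had 2009, 1658, 3026, 2750.2 and 2997 normalized counts in WT and 1347 at the lowest, 1631 at the median and 1869 at the highest in Chd8L+/- libraries. All 7 Chd8L+/- libraries were below 4 of the WT libraries, and WT replicate 2 lay among them. Its log2 fold change was -0.60 with an SE of 0.16 (limma, adjusted p = 0.121, exact permutation p = 0.00505), and -0.74 (limma, adjusted p = 0.00404, range over the alternatives 0.00374 to 0.343) without that library. The gene overlaps Yjefn3 on the same strand and Tssk6 on the opposite strand, so that reads may be shared. Ndufa11, needed for a stable membrane arm, had 1132, 926, 1458, 1388 and 1771 in WT and 675 at the lowest, 842 at the median and 1085 at the highest in Chd8L+/- libraries. Here too only WT replicate 2 overlapped the Chd8L+/- group, and the log2 fold change was -0.59 with an SE of 0.16 (limma, adjusted p = 0.121, exact permutation p = 0.00758). For Ndufa3 the WT counts were 1725, 1382, 2253, 1863 and 2489, the Chd8L+/- counts were 943 at the lowest, 1246 at the median and 1589.6 at the highest, and the log2 fold change was -0.60 with an SE of 0.17 (limma, adjusted p = 0.121, exact permutation p = 0.00884). Ndufa11 and Ndufa3, when WT replicate 2 was left out, were at -0.71 (limma, adjusted p = 0.00603, range over the alternatives 0.00491 to 0.343) and -0.72 (limma, adjusted p = 0.00788, range over the alternatives 0.0074 to 0.343), and with length and GC correction at -0.31 and -0.36. Ndufa11 overlaps Vmac on the opposite strand, and of the 36 subunit genes 19 overlap another annotated gene. Ndufa10, a larger accessory subunit of the same arm, was at -0.21 with an SE of 0.13 (limma, adjusted p = 0.329, exact permutation p = 0.12), and its highest library, Chd8L+/- replicate 6, exceeded every WT library. In this arm, 7 of the 9 genes were called lower at an adjusted p of 0.05 or less when WT replicate 2 was left out (background 13.6%).

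In the distal membrane arm, which holds the Ndufb subunits, 11 of 11 had a lower mean in Chd8L+/- libraries, 7 of them with p of 0.05 or less before adjustment, and the median log2 fold change was -0.46. Ndufb11, encoded on the X chromosome, had 1907, 1877, 2149, 2272 and 2376 normalized counts in WT and 1311 at the lowest, 1615 at the median and 1994 at the highest in Chd8L+/- libraries. In 6 of 7 Chd8L+/- libraries it was below every WT library, and replicate 6 was again the exception. The log2 fold change was -0.41 with an SE of 0.12 (limma, adjusted p = 0.121, exact permutation p = 0.00758), and -0.45 (limma, adjusted p = 0.0175, range over the alternatives 0.00885 to 0.421) without WT replicate 2. Without that library, 7 of the 11 genes were called lower at an adjusted p of 0.05 or less (background 13.6%). Ndufb11 was at -0.23 with length and GC correction. Ndufab1, the mitochondrial acyl carrier protein, serves in fatty acid synthesis and iron-sulfur cluster assembly as well as in complex I. Its log2 fold change was -0.24 with an SE of 0.14 (limma, adjusted p = 0.305, exact permutation p = 0.124), with WT counts of 1155, 1134, 1117, 1035 and 1477 and Chd8L+/- counts of 782 at the lowest, 969 at the median and 1381 at the highest. The groups overlapped, with Chd8L+/- replicates 6 and 7 inside the WT range, and length and GC correction put Ndufab1 at -0.16.

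**Figure D3:**
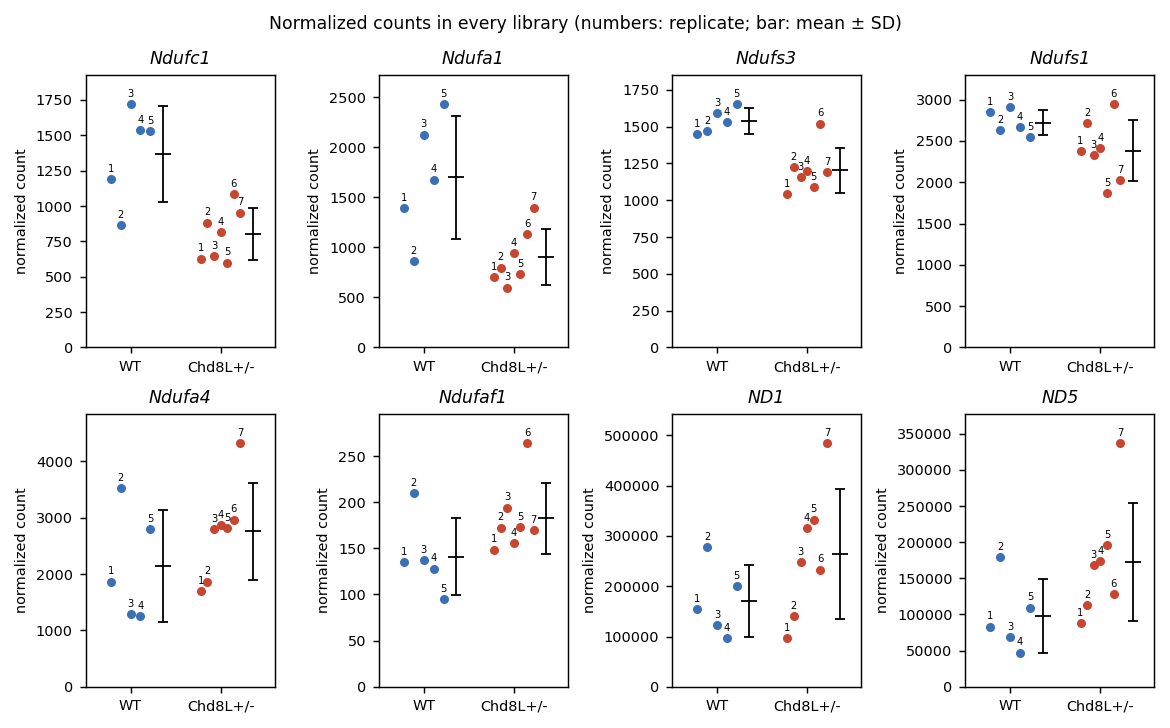
Normalized counts of 8 genes in every library, each point a mouse numbered by its replicate, with the mean and SD at the side; axes start at 0. WT replicate 2 lies with the Chd8L+/- libraries for Ndufc1 and Ndufa1, while Chd8L+/- replicate 6 reaches the WT level for Ndufs3 and Ndufs1, and for ND1 and ND5 Chd8L+/- replicate 7 is highest.

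Over the 7 nuclear core subunits, which carry out catalysis, the median log2 fold change was -0.36, and 5 had p of 0.05 or less before adjustment. For the 29 accessory subunits the median was -0.45, with 21 at that p. When WT replicate 2 was left out, 4 core and 19 accessory subunits were called lower at an adjusted p of 0.05 or less (background 13.6%).

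Ndufa4, named for complex I but since assigned to cytochrome c oxidase, was the 1 tested row with a higher mean in Chd8L+/- libraries under every alternative tried. WT counts were 1864, 3530.1, 1296, 1257 and 2797, and Chd8L+/- counts were 1699.7 at the lowest, 2812 at the median and 4323 at the highest. WT replicate 2 was higher than 6 of the 7 Chd8L+/- libraries, and the groups overlapped. Its log2 fold change was 0.42 with an SE of 0.28 (limma, adjusted p = 0.356, exact permutation p = 0.189), and 0.63 (limma, adjusted p = 0.0875, range over the alternatives 0.00651 to 0.669) without WT replicate 2. Ndufa4l2, a paralogue known as a hypoxia-induced gene, was under the mean of 10 and was not tested. It had 0, 2.03, 7.06, 21.8 and 21.3 normalized counts in WT and 0 at the lowest, 0.864 at the median and 4.44 at the highest in Chd8L+/- libraries, with WT replicates 4 and 5 standing above the rest. The second row under the symbol Ndufa13 had between 4.06 and 15.05 in WT and between 2.09 and 10.9 in Chd8L+/- libraries, and was not tested.

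Of the 8 Ndufaf assembly factors, 2 were lower and 6 higher by mean log2 value in Chd8L+/- mice. Their median log2 fold change was 0.08, but it was -0.02 under quantile normalization. All 8 were higher with libraries scaled to nuclear reads, which moved the median of all genes to 0.25. Relative to the median of all genes, that of the 8 was 0.06 both without and with this scaling. The difference from the subunits was not tested. None of the 8 had p of 0.05 or less before adjustment with limma or an adjusted p of 0.05 or less with limma, edgeR or DESeq2. Relative to the WT mean, the Chd8L+/- means ran from 91.1% for Ndufaf3 to 129% for Ndufaf1. Per kilobase of transcript, the WT means had a median of 114 normalized counts over the 8, against 2045 over the 36 nuclear subunits. They ran from 74.5 for Ndufaf6 to 440.1 for Ndufaf8, where the lowest subunit was at 558. In Chd8L+/- libraries the ranges met, with the highest factor at 423 and the lowest subunit at 397.

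Ndufaf1, on the minus strand at chr2:119655446-119662827, belongs to the complex that assembles the membrane arm. It had 135, 210.04, 137, 128 and 95.3 normalized counts in WT and 149 at the lowest, 172 at the median and 264 at the highest in Chd8L+/- libraries. WT replicate 2 was above 6 of the 7 Chd8L+/- libraries, and the other WT libraries were below all 7. Means were 141 ± 42.1 in WT (SD, n = 5) and 183 ± 38.7 in Chd8L+/- libraries (SD, n = 7), and the log2 fold change was 0.39 with an SE of 0.19 (limma, adjusted p = 0.226, exact permutation p = 0.0682). When WT replicate 2 was left out it was 0.55 (limma, adjusted p = 0.0329, range over the alternatives 0.0191 to 0.452). Ndufaf1 was the 1 factor of the 8 called there, where 14.0% of all genes were called higher and 13.6% lower.

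Ndufaf3 and Ndufaf4 act together early in building the Q module. Ndufaf3 had a log2 fold change of -0.14 with an SE of 0.13 (limma, adjusted p = 0.536, exact permutation p = 0.199) and Ndufaf4 of 0.13 with an SE of 0.19 (limma, adjusted p = 0.7, exact permutation p = 0.528), with Ndufaf4 at 335, 477, 250.05, 265 and 424 in WT and 281 at the lowest, 375 at the median and 525 at the highest in Chd8L+/- libraries. Both groups overlapped over most of their range. Ndufaf5 hydroxylates an arginine of Ndufs7 and was at 0.03 (limma, adjusted p = 0.953), and its partner Ndufaf8 was at -0.05 (limma, adjusted p = 0.775). Ndufaf7, a methyltransferase, was at 0.12 (limma, adjusted p = 0.642). Ndufaf2, a paralogue of the subunit Ndufa12 that acts late in assembly, was at 0.02 (limma, adjusted p = 0.965), and Ndufaf6 was at 0.20 (limma, adjusted p = 0.664). With length and GC correction Ndufaf3 was at -0.02, Ndufaf4 at 0.04, Ndufaf5 at 0.14, Ndufaf8 at 0.16, Ndufaf2 at 0.21 and Ndufaf6 at 0.32. For Ndufaf7 the highest library of each group was WT replicate 2 with 278 and Chd8L+/- replicate 6 with 307 normalized counts.

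Complex I assembly factors without an Nduf name were split in direction, with 6 of 12 tested lower and 6 higher (1 lower and 11 higher with nuclear scaling) and a median log2 fold change of 0.09. Nuclear scaling moved the median of all genes to 0.25. Relative to the median of all genes, that of the 12 factors was 0.07 both without and with this scaling. Of the 12 factors, 3 were higher in Chd8L+/- libraries with p of 0.05 or less before adjustment and 0 lower (background 12.5% higher, 11.8% lower). At the adjusted p, 0 passed by limma, edgeR or DESeq2. The 3 were Tmem186, Ecsit and Acad9. Tmem126b, which like Ecsit and Acad9 is known to work with Ndufaf1, had the opposite sign, at -0.30 with an SE of 0.16 (limma, adjusted p = 0.267, exact permutation p = 0.096). Ecsit had 308, 439, 222, 259 and 239 normalized counts in WT and 306 at the lowest, 388 at the median and 587 at the highest in Chd8L+/- libraries. WT replicate 2 was the highest WT library, at the level of the Chd8L+/- group. Log2 fold changes were 0.48 for Tmem186, 0.49 for Ecsit and 0.45 for Acad9, with limma adjusted p of 0.126, 0.149 and 0.152. Without WT replicate 2 they were at 0.61 (limma, adjusted p = 0.0102, range over the alternatives 0.0102 to 0.355), 0.65 (limma, adjusted p = 0.0135, range over the alternatives 0.00651 to 0.376) and 0.62 (limma, adjusted p = 0.00722, range over the alternatives 0.00722 to 0.418).

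Genes of iron-sulfur cluster assembly, which supply the clusters of complex I, were likewise split, with 8 of 17 lower, 9 higher and a median log2 fold change of 0.06 (2 lower, 15 higher and a median of 0.29 with nuclear scaling). The median of all genes was 0.01 without that scaling and 0.25 with it. Isca1, a late-acting assembly protein, was at -0.42 with an SE of 0.12 (limma, adjusted p = 0.121, exact permutation p = 0.00758), and -0.45 (limma, adjusted p = 0.0218, range over the alternatives 0.00666 to 0.408) without WT replicate 2. Among 13 regulators of mitochondrial genes, 2 were lower and 11 higher (4 and 9 under quantile normalization). Esrra, which encodes a nuclear receptor that acts on genes of oxidative metabolism, had 5794, 3779, 6728, 6960.3 and 7048 normalized counts in WT and 3715 at the lowest, 4326 at the median and 4965 at the highest in Chd8L+/- libraries. WT replicate 2 was within the Chd8L+/- range and the other 4 were above it. The log2 fold change of Esrra was -0.45 with an SE of 0.16 (limma, adjusted p = 0.128, exact permutation p = 0.0164), and -0.61 (limma, adjusted p = 0.00386, range over the alternatives 0.00386 to 0.358) without WT replicate 2. Polrmt, the mitochondrial RNA polymerase, was at 0.47 with an SE of 0.14 (limma, adjusted p = 0.121, exact permutation p = 0.00758) and its partner Tfb2m at 0.40 with an SE of 0.18 (limma, adjusted p = 0.186, exact permutation p = 0.0518). Their values without WT replicate 2 were 0.58 (limma, adjusted p = 0.00686, range over the alternatives 0.00686 to 0.343) and 0.51 (limma, adjusted p = 0.0436, range over the alternatives 0.0355 to 0.416). With all 12 libraries DESeq2 gave adjusted p of 0.0460 for Isca1, 0.0395 for Esrra, 0.0435 for Polrmt and 0.169 for Tfb2m. At 0.05 or less it called 4.61% of all genes lower and 1.84% higher.

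The 7 subunits encoded by mitochondrial DNA form the membrane core of the enzyme, and all 7 had a higher mean in Chd8L+/- libraries, the direction opposite to the 36 nuclear subunits. Their median log2 fold change was 0.54, from 0.35 for ND6 to 0.84 for ND5. Values varied widely within each genotype, and 0 of 7 had p of 0.05 or less before adjustment by limma, and 0 of 7 passed the adjusted p by limma, edgeR or DESeq2. ND5, which carries a proton channel, had 83311, 179415, 69134, 47377 and 109557 normalized counts in WT and 88591 at the lowest, 168834 at the median and 337217 at the highest in Chd8L+/- libraries. All 7 Chd8L+/- libraries were above the WT median, and WT replicate 2 was above 5 of them. Its log2 fold change was 0.84 with an SE of 0.44 (limma, adjusted p = 0.247, exact permutation p = 0.0556), and 1.10 (limma, adjusted p = 0.0567, range over the alternatives 0.0309 to 0.562) without WT replicate 2. ND1, which lies next to the ubiquinone site, had 154769, 277826, 122987, 97217 and 200918 in WT and 96592 at the lowest, 248563 at the median and 484868 at the highest in Chd8L+/- libraries. Chd8L+/- replicate 1 was below every WT library and replicate 7 above every WT library, and the log2 fold change was 0.56 with an SE of 0.51 (limma, adjusted p = 0.513, exact permutation p = 0.208).

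For the 7 genes the median without WT replicate 2 was 0.76, and 2 had p of 0.05 or less before adjustment (background 20.3% higher) and 0 at the adjusted p. When length and GC trends were also removed, 4 of the 7 were called higher at an adjusted p of 0.05 or less, where 14.4% of all genes were called higher. The other 6 protein-coding genes of mitochondrial DNA were also higher in 6 of 6 cases, with a median of 0.46. ND4 overlaps ND4L on the same strand and ND5 overlaps ND6 on the opposite strand, and copies of mitochondrial sequence lie in the nuclear genome, so that reads may be shared between these genes. How poly(A) selection weighs mitochondrial RNA was not tested.

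Summed per library, the 7 mitochondrial genes had 9.33, 19.6, 5.99, 4.74 and 8.20 times the normalized counts of the 36 nuclear subunits in WT replicates 1 to 5. In Chd8L+/- replicates 1 to 7 this ratio was 10.2, 11.4, 19.8, 20.1, 24.3, 12.6 and 31.7. Each Chd8L+/- library was above 4 of the 5 WT libraries, and WT replicate 2 was above 3 of the 7 Chd8L+/- libraries. A ratio within a library does not depend on its scaling factor.

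Compared one at a time, the libraries of each genotype were not alike. Of the 36 nuclear subunits, WT replicate 2 had 27 below every other WT library, whereas WT replicates 1, 3, 4 and 5 had 6, 0, 2 and 1. Chd8L+/- replicates 1 to 7 had 36, 29, 35, 20, 33, 0 and 9 of the 36 below all 5 WT libraries. Against WT replicates 1, 3, 4 and 5 alone these counts were 36, 34, 35, 31, 36, 11 and 16. Summed normalized counts of the 36 were highest in WT replicate 5 at 87498 and lowest in Chd8L+/- replicate 1 at 42607. The lowest WT sum was 56699 in replicate 2, and the highest Chd8L+/- sum was 67525 in replicate 6.

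**Figure D4:**
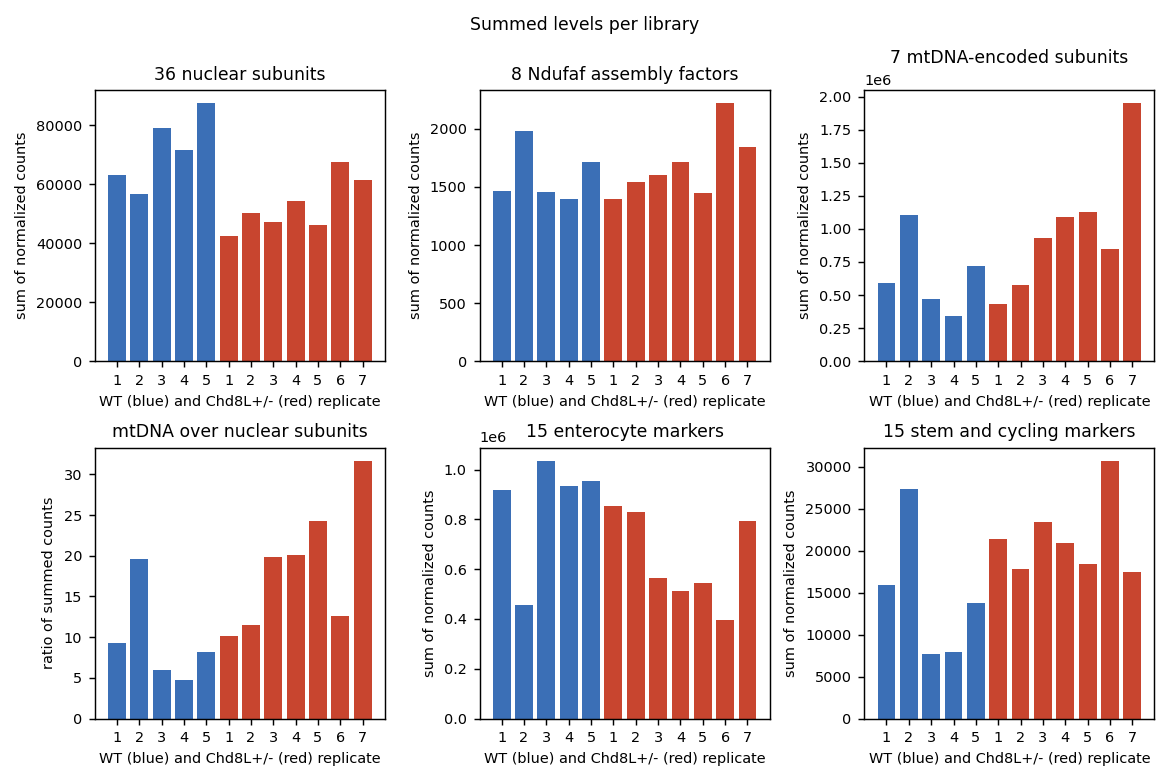
Bars give, for each library, summed normalized counts or the ratio of sums, with WT replicates 1 to 5 in blue and Chd8L+/- replicates 1 to 7 in red; all axes start at 0. WT replicate 2 has the lowest nuclear subunit sum, the highest mitochondrial sum and the lowest enterocyte marker sum of the WT libraries, and Chd8L+/- replicate 6 has the highest nuclear subunit sum of its group together with the lowest enterocyte marker sum of all 12.

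Mean levels of cell type markers also differed between the genotypes. Of 15 enterocyte markers, 14 had lower Chd8L+/- means, the median log2 fold change being -0.50, and of 15 stem and cycling cell markers, 15 were higher with a median of 0.67. All 12 tuft cell markers were lower, with a median of -1.85. Stromal markers were higher in 8 of 8 tested, with sums of 245 to 704 normalized counts in WT and 271 to 2608 in Chd8L+/- libraries, and myeloid markers in 10 of 10, with sums of 1279 to 3339 in WT and 1882 to 4191 in Chd8L+/- libraries. Of 8 epithelial markers, 5 were lower, and of 11 lymphocyte markers, 10 were lower, with medians of -0.17 and -0.30. Of 7 goblet cell markers, 6 were lower, with a median of -0.12, but 3 were lower with nuclear scaling, which also left 10 enterocyte, 2 epithelial and 7 lymphocyte markers lower. That scaling moved the median of all genes to 0.25. With all 12 libraries, 0 of these markers passed the adjusted p by limma or edgeR. DESeq2 called 10 tuft, 3 enterocyte, 2 goblet and 1 epithelial marker lower, and 1 myeloid and 1 stromal marker higher (background 4.61% lower, 1.84% higher). Without WT replicate 2, limma called 11 tuft, 4 enterocyte, 2 goblet, 1 epithelial and 1 lymphocyte marker lower (background 13.6%) and 10 stem and cycling, 4 myeloid, 3 stromal and 1 epithelial marker higher (background 14.0%). Groups then did not overlap for 9 tuft, 4 enterocyte and 1 epithelial marker, lower in Chd8L+/- libraries (background 7.71%), and for 5 stem and cycling, 2 myeloid and 1 stromal marker, higher (background 6.69%). Before adjustment by limma, 12 tuft, 10 stem and cycling, 4 enterocyte, 4 stromal, 3 myeloid, 2 goblet, 1 epithelial and 1 lymphocyte marker had p of 0.05 or less with all 12 libraries. Of all genes tested, 11.8% were lower and 12.5% higher at that p. The goblet marker Muc2 and the lymphocyte marker Trac were also planned, but no row was found under their names. No marker with a row was at 0 in all libraries. Chd8L+/- replicate 6 had the highest nuclear subunit sum of its group beside the lowest enterocyte sum. The part of cell composition in the complex I values was not tested.

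Per kilobase of transcript, WT means of the nuclear subunits ran from 558 normalized counts for Ndufb2 to 5286 for Ndufb9, with a median of 2045, and in Chd8L+/- libraries the median was 1521. The mitochondrially encoded subunits were between 53596 for ND5 and 178415 for ND1 in WT on the same scale. Nuclear subunit transcripts are short, with a median length of 868 bases against 2803 over the genes tested, and core transcripts (median 1623) were longer than accessory transcripts (median 732). Across the 36 genes, the log2 fold change went with log2 transcript length (Pearson r = 0.57, Spearman rho = 0.56), with lower values for shorter transcripts. These points share the same 12 libraries, and over 12738 genes the Pearson r was 0.20. When each library was corrected for transcript length and GC, r over the 36 was 0.05, and the median of the 37 rows was -0.27, with 36 of 37 lower and 16 with p of 0.05 or less before adjustment. Without WT replicate 2 and with those trends removed, 16 were called lower at an adjusted p of 0.05 or less and 1, Ndufa4, higher, where 14.3% of all genes were called lower and 14.4% higher.

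Promoters of 32 of the 36 nuclear subunits and 7 of the 8 Ndufaf factors were found in RefSeq (GRCm38.p6), and the 250 bases before each start were searched on both strands for 4 motifs of factors known at genes of oxidative phosphorylation. The NRF1 motif, whose letters stand in capitals in the first 2 sequences shown, was in 1 subunit promoter (3.12%) and 1 Ndufaf promoter (14.3%), against 1.79% of the genes tested. The ETS motif CCGGAAG was in 3 subunit promoters (9.38%) and 2 Ndufaf promoters (28.6%), against 15.2% of the genes tested. The YY1 motif AAGATGGCG and the ERR motif TCAAGGTCA were in 0 promoters of either set, against 1.43% and 0.339%. The promoters of 3 genes are shown because they set a subunit that was lower in Chd8L+/- libraries beside 2 assembly factors that were not, with the same NRF1 motif in the first pair: Ndufa11 (plus strand, chr17:56717512-56717761), Ndufaf4 (plus strand, chr4:24897833-24898082) and Ndufaf1 (minus strand, chr2:119662835-119663084, with an ETS motif). Capitals mark the motif, and each sequence ends at the base before the annotated start.
Ndufa11: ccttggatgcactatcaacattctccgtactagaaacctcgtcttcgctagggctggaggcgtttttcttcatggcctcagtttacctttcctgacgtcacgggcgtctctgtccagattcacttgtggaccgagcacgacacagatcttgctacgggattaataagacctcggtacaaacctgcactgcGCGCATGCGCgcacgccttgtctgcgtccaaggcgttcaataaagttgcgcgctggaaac
Ndufaf4: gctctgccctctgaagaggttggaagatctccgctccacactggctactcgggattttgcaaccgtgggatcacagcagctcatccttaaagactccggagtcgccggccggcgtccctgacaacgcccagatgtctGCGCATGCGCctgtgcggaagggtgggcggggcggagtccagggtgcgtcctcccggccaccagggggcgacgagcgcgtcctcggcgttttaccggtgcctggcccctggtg
Ndufaf1: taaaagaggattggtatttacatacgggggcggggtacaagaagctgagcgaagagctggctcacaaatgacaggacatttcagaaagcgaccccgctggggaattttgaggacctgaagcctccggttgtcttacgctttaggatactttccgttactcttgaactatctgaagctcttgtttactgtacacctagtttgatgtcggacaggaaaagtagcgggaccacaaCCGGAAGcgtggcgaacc
The first base of the motif lay 60 bases before the start in Ndufa11, 113 in Ndufaf4 and 18 in Ndufaf1. A match says only that these letters stand in the window.

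A list of 39 nuclear genes of respiratory complexes II to V, which leaves out Ndufa4, was read in the same fit. Of these, 39 of 39 were lower (37 with nuclear scaling), with a median log2 fold change of -0.52 (-0.29 with nuclear scaling). Of these, 32 had p of 0.05 or less before adjustment, against 11.8% of all genes tested, and 9 with nuclear scaling (background 4.5%). Enzymes of the tricarboxylic acid cycle were lower in 11 of 13, with a median of -0.19, and in 6 of 13 with nuclear scaling, with a median of 0.05. Mitochondrial ribosomal proteins were lower in 27 of 76, with a median of 0.07, and in 11 of 76 with nuclear scaling, with a median of 0.30. The median of all genes was 0.01 without nuclear scaling and 0.25 with it. Relative to that median, complexes II to V were at -0.54 both without and with the scaling. Differences between these groups and complex I were not tested.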

How the data were processed

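Gut epithelial poly(A) RNA of 5 WT and 7 Chd8L+/- mice was sequenced. The authors mapped reads to mm10 with Tophat2 and used DESeq2, which the submitters' processing notes also name; how reads were counted, on which annotation and with what strand setting is not given in the sources used here. The signal deposited for each gene is its read count over the size factor of the library, as the authors computed it. Values were whole multiples of the value of 1 read, so that reads were recovered for 100.0% of values (within 0.01 of a whole number). There were 15691662 to 20761315 reads per library. Counting error is largest for genes with few reads, and p-values set the difference between the genotypes against the spread between mice. Columns of other samples numbered 0.

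Groups came from the sample labels. The genotypes were compared over all 12 libraries with limma 3.58.1 (R 4.3.3; lmFit, eBayes with trend) on log2(value + 1) for the 12808 genes with a mean of at least 10, with Benjamini-Hochberg adjustment over these genes and a threshold of 0.05. Single genes were also given a two-sided exact permutation test of log2 values over every assignment of the 12 libraries to groups of 5 and 7, for which 0.00126 is the lowest p. Fold changes on this scale understate the change of low genes. Members and gene lists were chosen with earlier results of these data known, and the names of the mitochondrially encoded genes were added after the table had been seen. Named genes are the 7 nuclear core subunits, the 8 subunits with the smallest p among those lower in Chd8L+/- libraries, the 4 with the highest log2 fold change, every Ndufaf gene, Ndufa4, Ndufa4l2, Ndufab1, members whose groups did not overlap, Chd8, and up to 4 genes by p from each of the lists of other assembly factors, iron-sulfur assembly and regulators. Ndufb2 and Ndufb9, the ends of the range per kilobase, Ndufa12, and Tmem126b, given for its opposite sign, were named outside this rule. Some genes that the rule names are not reported here.

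Alternatives were a pseudocount of 0.5 or 5, no filter, quantile normalization, edgeR 4.0.16 (quasi-likelihood, TMM) and DESeq2 1.42.0 on recovered reads, the replicate number (alone or with length and GC correction) or the first letter of the library's name as block, length and GC correction (natural splines with 4 degrees of freedom in each library), and each library left out. Scaling to reads on nuclear genes, length and GC correction without WT replicate 2, and leaving out WT replicate 2 with Chd8L+/- replicate 6 were chosen after seeing the data. Ranges of adjusted p over the alternatives include these settings and the comparison over all 12 libraries. What the letter stands for is not stated, and the letter block drops Chd8L+/- replicate 7, the only library with the letter D, from the contrast. Positions and transcript lengths came from GENCODE M21 on GRCm38 (99.4% of genes had a length), and promoters from RefSeq. The limma, edgeR, DESeq2, length and GC correction and replicate block fits were tested on simulated data, and the other steps were not. The share of false calls there was highest for DESeq2. Simulated log2 fold changes were -2, -1, 1 and 2, larger than those of the subunits in limma with all 12 libraries. No simulated library was made to stand apart. How the fits perform on data like these was therefore not tested.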

Additional observations from a re-analysis of the deposited data

Results flagged for a closer look

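In 5 of 88 groups of libraries examined, for the named genes in each genotype, 1 library stood far from the others of its group, where chance alone gives about 4.4. On the log2(normalized count + 1) scale, Ndufv1 was at 11.6 in WT replicate 2 and between 11.997 and 12.1 in the other WT libraries. Acad9 was at 9.21 in WT replicate 2 and between 8.32 and 8.43 in the others. Ndufs3 was at 10.6 in Chd8L+/- replicate 6 against 10.02 to 10.3 in the other Chd8L+/- libraries, and Ndufaf7 at 8.27 in that replicate against 7.61 to 7.89. For Ndufaf3, WT replicate 4 was at 7.21 while the remaining WT values were between 7.46 and 7.57.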

How the results depend on the processing

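With all 12 libraries limma called 0 of 37 subunit rows. The number called was 10 with DESeq2 and 3 with the library letter as a block, which drops Chd8L+/- replicate 7 from the contrast. With single libraries left out it was 0 to 23 (23 without WT replicate 2, 0 in each of the other 11 cases). It was 17 with length and GC correction without WT replicate 2, and 25 without WT replicate 2 and Chd8L+/- replicate 6. Of all genes, 13.6% were called lower and 14.0% higher without WT replicate 2. With length and GC correction as well these shares were 14.3% and 14.4%. Without WT replicate 2 and Chd8L+/- replicate 6, 1651 of 12808 genes were called lower and 1580 higher. The median log2 fold change of the 37 subunit rows stayed negative under each alternative, between -0.51 and -0.35 with single libraries left out. The number lower with p of 0.05 or less before adjustment was 26, and 13 under quantile normalization, 16 with length and GC correction, 4 with scaling to nuclear reads, and 18 to 32 with single libraries left out. Of the 8 Ndufaf factors, 0 were called with all 12 libraries, and 1 was called without WT replicate 2. The count was also 1 with length and GC correction or without Chd8L+/- replicate 6 as well. For the 12 other factors, 0 were called with all 12 libraries and 3 under each of these 3 settings. The shares of all genes called in these 3 settings are those given above. The Ndufaf median of 0.08 was -0.024 under quantile normalization, 0.31 with scaling to nuclear reads and -0.00421 to 0.20 with single libraries left out. For the other factors, the median of 0.09 was -0.012 without the filter and 0.32 with nuclear scaling. The median of all genes was 0.25 with nuclear scaling.

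Among single genes, the sign turned for Ndufs1 (0.033), Ndufa10 (0.032), Ndufaf3 (0.10) and Ndufaf8 (0.18) with nuclear scaling, for Ndufaf5 (-0.12) and Ndufaf2 (-0.10) under quantile normalization, and for Ndufaf8 with length and GC correction (0.16) and Ndufaf3 and Ndufaf8 with that correction without WT replicate 2 (0.024 and 0.16). With single libraries left out, Ndufaf5 ranged from -0.080 to 0.16 and Ndufaf2 from -0.090 to 0.13.

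Replicate numbers are shared by the groups, but the deviations of same-numbered libraries correlated at 0.19, -0.34, -0.13, -0.17 and -0.23, so the numbers were not taken as pairs, and 1 of 5 WT libraries correlated best with its own number. With the replicate block, which drops the 2 Chd8L+/- libraries without a WT number from the contrast, 0 subunit rows and 0 of all genes were called. The medians were -0.59 for the subunits and -0.064 for the Ndufaf factors, against 0.023 over all genes. The block put Ndufaf5 at -0.19, Ndufaf2 at -0.15, Ndufaf6 at -0.032 and Ndufaf4 at -0.00206. With the replicate block and length and GC correction, Ndufaf5 was at -0.038, Ndufaf4 at -0.070 and Ndufaf8 at 0.17. The causes of these differences were not tested. Depth limits the 2 rows under a mean of 10, which were not tested.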
